A study of Mus musculus with 4 samples.

Results

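The genes described are 35 members of glycolysis and the hypoxia response, read by symbol from a table of 24028 mouse genes measured by RNA sequencing in macrophages of the injured sciatic nerve. All 35 symbols were found. The aged group is made of 2 libraries from females of 15 months, and the young group of 2 libraries from females of 3 months. Both ages were collected on day 3 after nerve injury. All mice carried the Cx3cr1-GFP and Ccr2-RFP reporter alleles, each in the heterozygous state, and the labels describe the sorted cells as CCR2+ Cx3cr1+. The reporters are knocked into the genes they are named for, so animals of both ages have a single working copy of each. The submitters used 7 to 8 mice per time point, combined into 2 pools, so a library stands for a pool and not for a mouse.

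Glycolysis splits glucose into pyruvate in the cytosol and yields ATP without oxygen. Macrophages that enter an injured tissue are known to rely on it, and to turn much of the pyruvate into lactate, which leaves the cell through monocarboxylate carriers. The transcription factor HIF links the pathway to oxygen: prolyl hydroxylases mark its alpha subunit for destruction when oxygen is present, and when oxygen is short the alpha subunit pairs with ARNT and switches on genes for glucose carriers, glycolytic enzymes, mitophagy receptors and the hydroxylases themselves. Several steps can be run by alternative isoenzymes, which differ in their affinity, their regulation and the tissues that favour them.

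Values are FPKM, that is fragments per kilobase of a gene, relative to sequencing depth. They allow a rough comparison between genes, which uneven amplification and shared sequence, both described below, can distort. The table as deposited had been scaled by read totals that change from gene to gene. Here every value was put on its own library's total, of 8613360 to 11489336 reads, and a difference that takes the opposite sign in the values as deposited is marked as such. Each difference subtracts the young from the aged mean of log2(FPKM + 1), a scale that shrinks the changes of weakly expressed genes. It was tested with limma over the 11656 genes with a mean of at least 1 FPKM, and an adjusted p below 0.05 counts as a call. Means are given ± SD with n = 2 libraries per age. In such bulk samples, fewer cells of a type and less RNA per cell cannot be told apart. The 8 macrophage markers summed to 13084 and 9749 FPKM in the aged libraries, against 14956 and 12074 FPKM in the young libraries. Most of each sum was Lyz2, at 10484 and 7491 FPKM in the aged and 12267 and 9886 FPKM in the young libraries. Of the 8 markers, 1 had both aged libraries above both young ones, Csf1r, and 3 had both below, Adgre1, Fcgr1 and Itgam. Each of the 7 lists for other cells summed to at most 191 FPKM, the highest being the 6 fibroblast markers, at 87.5 and 62.7 FPKM in the aged libraries and 39.4 and 191 FPKM in the young libraries. Of 54 markers, 51 were in the table by symbol, and Ly6g, Hba-a1 and Hbb-bt were not matched.

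No member passed the threshold of an adjusted p of 0.05 between the ages, and no gene of the whole table did. The members with the smallest p were Arnt, the partner of HIF alpha subunits, which was lower in aged macrophages, and Ldhb, Egln1 and Slc16a3, which were higher. These are the B subunit of lactate dehydrogenase, an oxygen-sensing prolyl hydroxylase and the lactate exporter MCT4. In 10 of the 15 enzymes of glycolysis proper that were tested, the libraries of an age lay farther apart on the log2 scale, in the aged or the young pair, than the means of the ages, as they did in 74.3% of all genes tested.

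Glucose enters through Slc2a1, the carrier GLUT1, at 28.7 and 28.7 FPKM in the aged libraries, against 23.0 and 26.8 FPKM in the young libraries. Both aged libraries lay above both young ones, with a log2 difference of 0.20 (SE 0.22), smaller than the gap within the young pair. Hexokinases then trap glucose by phosphorylation. Hk2, the inducible isoenzyme that binds mitochondria, was 15.3 and 20.6 FPKM in the aged and 19.7 and 18.3 FPKM in the young libraries, which overlap. Hk3, an isoenzyme typical of myeloid cells, was 14.5 and 13.1 FPKM in the aged libraries, against 16.8 and 20.8 FPKM in the young libraries. Its aged libraries both lay below the young ones, with a log2 difference of -0.41 (SE 0.24, limma adjusted p 0.761). Hk1, the housekeeping form, stayed between 3.97 and 6.24 FPKM. Together the 3 hexokinases summed to 34.996 and 39.2 FPKM in the aged and 40.5 and 45.3 FPKM in the young libraries.

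Phosphofructokinase commits the sugar to glycolysis. The share of Pfkp among its subunits lay apart between the ages, as did shares in several other sets, lactate dehydrogenase and the monocarboxylate carriers among them. Pfkp, the platelet-type subunit, was the most abundant, at 20.5 and 21.5 FPKM in the aged libraries, against 26.2 and 27.4 FPKM in the young libraries. Both aged libraries lay below both young ones, and the difference of -0.34 (SE 0.21, limma adjusted p 0.761) was larger than the gap within either age. Pfkl, the liver-type subunit, was 13.7 and 10.99 FPKM in the aged and 9.27 and 11.05 FPKM in the young libraries, a difference of 0.26 (SE 0.26). Pfkm, the muscle-type subunit, was low, at 1.52 and 5.02 FPKM in the aged and 1.03 and 1.74 FPKM in the young libraries. Pfkp thus held 57.3% and 57.3% of the summed FPKM of the 3 subunits in the aged libraries, against 71.8% and 68.2% in the young libraries. The sum itself was 35.7 and 37.5 FPKM in the aged libraries and 36.5 and 40.2 FPKM in the young libraries. For a single value such as this share, an exact permutation test over 2 against 2 libraries cannot give a two-sided p below 0.333, so none was run. Pfkp shares 15.4% of its 50-base stretches with transcripts of its neighbour Pitrm1, which was also lower, at 10.4 and 10.002 FPKM in the aged and 15.3 and 14.3 FPKM in the young libraries. The part of that overlap in the Pfkp values was not tested. Skeletal muscle markers summed to 24.7 and 26.01 FPKM in the aged and 14.5 and 17.1 FPKM in the young libraries, mostly from Acta1, while Ckm was at most 0.328 FPKM. Their part in the Pfkm values was not tested.

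**Figure D1:**
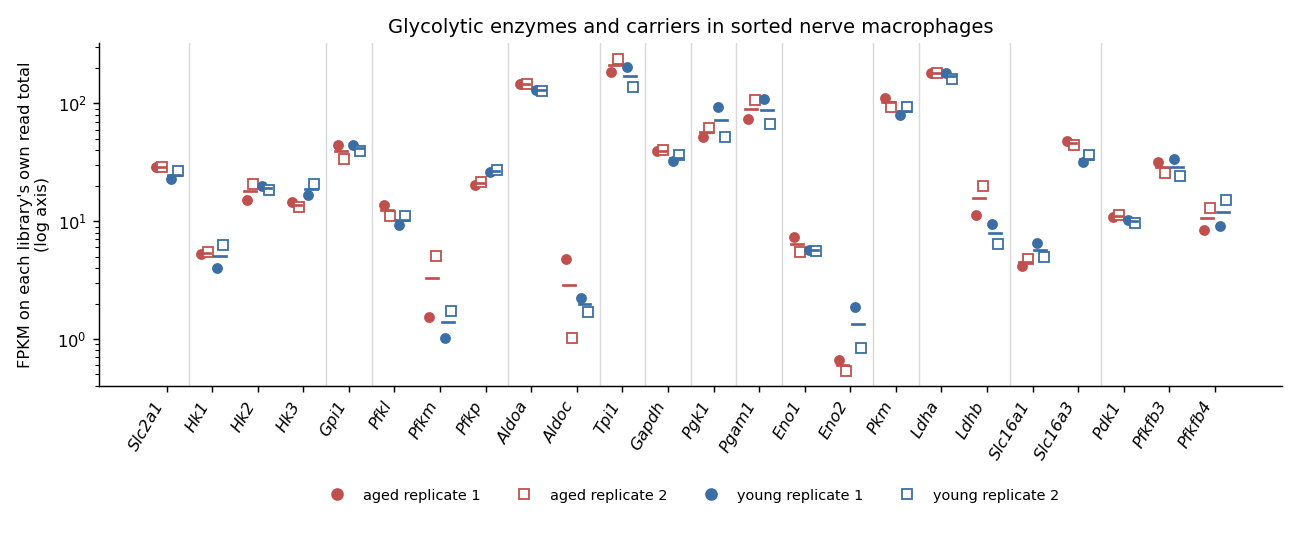
Levels of the 24 members that carry or process glucose and its products, in FPKM on a log axis, with aged libraries in red to the left and young libraries in blue to the right of each gene. Points are single libraries and short lines are group means; Tpi1, Ldha and Aldoa are the highest and Eno2 the lowest.

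In the middle of the pathway, Aldoa, the main aldolase, was steady within each age, at 147 and 147 FPKM in the aged libraries, against 130 and 128 FPKM in the young libraries. The difference of 0.19 (SE 0.18, limma adjusted p 0.835) was small, and was -0.45 in the values as deposited. Aldoa held 96.9% to 99.3% of the aldolase FPKM in every library, and Aldoc, the brain-type form, stayed between 1.01 and 4.77 FPKM. Tpi1, triose phosphate isomerase, had the highest mean of all members, at 187 and 239 FPKM in the aged and 203 and 139 FPKM in the young libraries, so that the ages overlap. Gpi1, which turns glucose 6-phosphate into fructose 6-phosphate, was 44.5 and 33.8 FPKM in the aged and 44.1 and 39.3 FPKM in the young libraries. Pgk1, which makes the first ATP of the pathway, was 51.5 and 62.4 FPKM in the aged libraries and 93.2 and 51.6 FPKM in the young libraries. The young mean of Pgk1 thus rests on young replicate 1, and the difference of -0.29 (SE 0.32) became 0.13 without that library. Pgam1, phosphoglycerate mutase, also overlapped, at 74.1 and 107 FPKM in the aged and 109 and 66.6 FPKM in the young libraries. Its difference of 0.06, which was -0.28 in the values as deposited, turned to -0.20 without aged replicate 2 and to -0.29 without young replicate 2.

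Pkm, pyruvate kinase, was 110.2 and 94.1 FPKM in the aged libraries, against 80.3 and 92.9 FPKM in the young libraries, with a difference of 0.24 (SE 0.21, limma adjusted p 0.811). Both aged libraries lay above both young ones, though aged replicate 2 and young replicate 2 were close, and the difference was -0.17 in the values as deposited. Gapdh and Eno1 are among the strongest transcripts of most cells, yet here they were listed at 39.1 and 39.96 FPKM in the aged and 32.8 and 36.6 FPKM in the young libraries for Gapdh, and at 7.27 and 5.49 FPKM in the aged and 5.74 and 5.59 FPKM in the young libraries for Eno1. Both share much sequence with copies elsewhere. Of the 50-base stretches of Gapdh, 58.4% also occur in other annotated genes, and 89 genes share at least 5% of them. Gm12070, which holds 46.5% of these stretches, was itself listed at 26.9 and 26.3 FPKM in the aged and 24.4 and 22.9 FPKM in the young libraries. Eno1b, which holds 48.4% of those of Eno1, was listed at 40.5 and 43.5 FPKM in the aged and 42.3 and 39.9 FPKM in the young libraries, several times the level of Eno1 itself. The summed level of Eno1 and Eno1b was 47.7 and 49.0 FPKM in the aged and 48.0 and 45.4 FPKM in the young libraries. The levels of Gapdh and Eno1 are therefore uncertain, and so in part are those of Pgk1 (68.0% shared), Bnip3 (59.1%), Pgam1 (41.5%), Gpi1 (24.5%), Bnip3l (24.4%), Pkm (23.7%) and Ldhb (20.99%). Eno2, the neuronal enolase, was 0.664 and 0.537 FPKM in the aged and 1.87 and 0.830 FPKM in the young libraries, with a mean of 0.975 FPKM that left it as the single member below the minimum for testing. It rests on 16 and 15 reads in the aged and 60 and 25 reads in the young libraries.

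Lactate dehydrogenase is a tetramer of A and B subunits, of which A favours the making of lactate and B is known for tissues that burn it. Ldha was 182.1 and 182.5 FPKM in the aged libraries, against 180.4 and 159.9 FPKM in the young libraries. The difference was 0.10 (SE 0.19), smaller than the gap within the young pair, and -0.54 in the values as deposited. Ldhb was 11.4 and 20.0 FPKM in the aged libraries, against 9.48 and 6.41 FPKM in the young libraries. Both aged libraries lay above both young ones, a 1.98-fold higher mean and a log2 difference of 0.87 (SE 0.35, unadjusted limma p 0.0473, adjusted p 0.740). Without aged replicate 2 the difference was 0.49. The B subunit accordingly made up 5.89% and 9.89% of the summed FPKM in the aged libraries, against 4.99% and 3.86% in the young libraries.

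Lactate crosses the membrane through monocarboxylate carriers, 2 of which are members. Slc16a3, MCT4, which exports lactate from glycolytic cells, was 48.4 and 44.3 FPKM in the aged libraries, against 31.7 and 36.3 FPKM in the young libraries. Both aged libraries lay above the young ones, with a log2 difference of 0.44 (SE 0.21, limma adjusted p 0.740) that stayed between 0.34 and 0.53 when any 1 library was left out. Slc16a1, MCT1, which works in both directions, was 4.14 and 4.81 FPKM in the aged libraries, against 6.48 and 4.95 FPKM in the young libraries. Its aged libraries lay below the young ones, with a difference of -0.29 (SE 0.30), smaller in size than the gap within the young pair. Slc16a3 thus held 92.1% and 90.2% of the summed FPKM of the pair in the aged libraries, against 83.0% and 88.0% in the young libraries. Slc16a7, MCT2, a carrier of high affinity that is not a member, was more abundant than Slc16a1, at 10.7 and 14.6 FPKM in the aged libraries, against 22.5 and 15.1 FPKM in the young libraries. Its aged libraries lay below the young ones, with a difference of -0.53 (SE 0.30, limma adjusted p 0.761). Aged replicate 2 and young replicate 2 were close. With Slc16a7 in the sum, Slc16a3 held 76.6% and 69.5% in the aged libraries, against 52.2% and 64.4% in the young libraries. Bsg, basigin, the chaperone that MCT1 and MCT4 need to reach the membrane, was 70.7 and 61.4 FPKM in the aged libraries, against 40.9 and 52.8 FPKM in the young libraries (difference 0.49, SE 0.23, limma adjusted p 0.740).

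**Figure D2:**
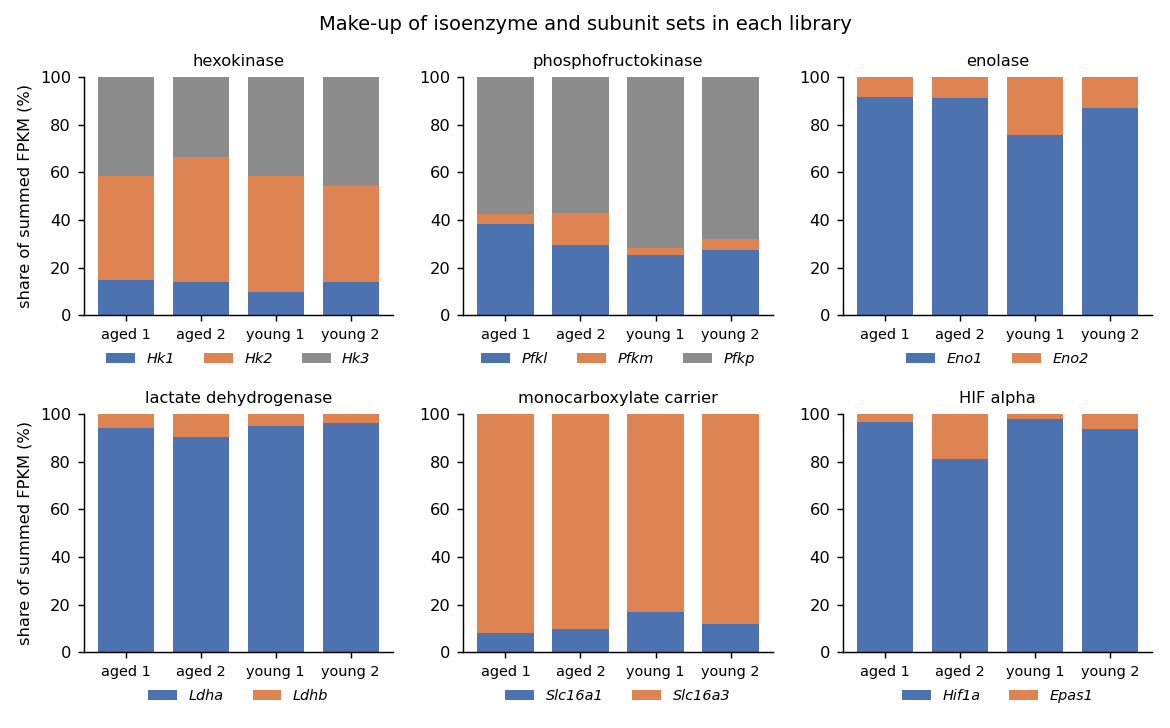
Share of each isoenzyme or subunit in the summed FPKM of its set, in percent, with the aged libraries to the left of the young libraries in each panel. Pfkp takes 57.3% of phosphofructokinase in both aged libraries against 71.8% and 68.2% in the young libraries, and Epas1 has its largest share, 18.7%, in aged replicate 2. The enolase panel leaves out Eno1b, which was listed at several times the level of Eno1, so its shares are uncertain.

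Of the regulators of flux, Pdk1, the kinase that keeps pyruvate out of the mitochondrion, was 10.8 and 11.3 FPKM in the aged libraries, against 10.3 and 9.57 FPKM in the young libraries. The difference of 0.14 (SE 0.24) was small, and -0.25 in the values as deposited. Pfkfb3, whose product fructose 2,6-bisphosphate drives phosphofructokinase, was 31.9 and 25.9 FPKM in the aged and 33.9 and 24.2 FPKM in the young libraries. The group means of Pfkfb3 were 28.9 ± 4.204 and 29.1 ± 6.85 FPKM in aged and young cells, and the limma difference was 0.00 (SE 0.26). Pfkfb4, its relative, was 8.44 and 12.8 FPKM in the aged and 9.12 and 15.0 FPKM in the young libraries, with wide overlap.

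Among the HIF subunits, Hif1a was abundant, at 96.6 and 103 FPKM in the aged libraries and 148 and 96.5 FPKM in the young libraries. A single library, young replicate 1, stood above the other 3, and the difference of -0.26 (SE 0.26) became 0.05 without it. Epas1, HIF2 alpha, was 3.41 and 23.8 FPKM in the aged libraries and 3.32 and 6.72 FPKM in the young libraries. Its difference of 0.86 (SE 0.80) rests on aged replicate 2 and became -0.39 without that library. Endothelial cells are known to be rich in Epas1. The 6 endothelial markers summed to 10.4 and 12.6 FPKM in the aged libraries, against 24.6 and 19.2 FPKM in the young libraries. Of the young sum, Cldn5 gave 16.9 FPKM in replicate 1. Cdh5 was 1.08 and 3.12 FPKM in the aged and 1.90 and 3.47 FPKM in the young libraries, and Pecam1 was 5.05 and 5.74 FPKM in the aged and 2.77 and 6.58 FPKM in the young libraries. Kdr was lower, at 1.33 and 1.72 FPKM in the aged libraries, against 2.27 and 6.40 FPKM in the young libraries. Cldn5 was 1.48 and 1.06 FPKM in the aged libraries and 0.459 FPKM in young replicate 2. Vwf was 1.22 and 0.514 FPKM in the aged and 0.384 and 1.51 FPKM in the young libraries. Tek was at most 0.790 FPKM. The part of endothelial cells in the Epas1 values was not tested.

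Arnt, HIF1 beta, had the smallest p of all members. It was 7.01 and 5.40 FPKM in the aged libraries, against 10.6 and 10.5 FPKM in the young libraries. The young libraries were nearly equal and both aged libraries lay below them, at 0.588 times the young mean. The log2 difference was -0.69 (SE 0.27, unadjusted limma p 0.0413, adjusted p 0.740), and -0.85 to -0.53 when any 1 library was left out. Arnt had at least 384 reads in every library, and none of its 50-base stretches occurs in another annotated gene. Ep300 and Crebbp encode general coactivators that HIF recruits, and were chosen for description by a rule that asks for ages apart. Ep300, the acetyltransferase p300, was 12.6 and 12.9 FPKM in the aged libraries, against 21.7 and 38.1 FPKM in the young libraries (difference -1.12, SE 0.31, unadjusted p 0.0114, limma adjusted p 0.740). Crebbp, its paralogue CBP, was 6.98 and 10.5 FPKM in the aged libraries, against 15.1 and 19.6 FPKM in the young libraries (difference -0.93, SE 0.30, unadjusted p 0.0198, limma adjusted p 0.740). In Arnt, as in these genes, both aged libraries lay below both young ones, as they did in 26.2% of all genes tested, and none of the 3 passed the test.

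Of the oxygen sensors, Egln1 was the most abundant. Egln1, PHD2, the main hydroxylase that marks HIF alpha subunits, was 58.7 and 52.9 FPKM in the aged libraries, against 39.4 and 42.1 FPKM in the young libraries. The aged mean was 1.37-fold the young mean, with a log2 difference of 0.44 (SE 0.20, limma adjusted p 0.740), and both aged libraries lay above the young ones. The difference was 0.33 in the values as deposited and 0.37 to 0.52 when any 1 library was left out. Egln3, PHD3, was low and nearly constant, at 3.64 and 3.74 FPKM in the aged libraries, against 3.32 and 3.37 FPKM in the young libraries, and its difference of 0.11 was -0.20 in the values as deposited. The sensors that are not members overlapped. Egln2, PHD1, was 4.21 and 5.99 FPKM in the aged and 3.47 and 5.68 FPKM in the young libraries, and Hif1an, which blocks the binding of coactivators to HIF, was 4.43 and 5.81 FPKM in the aged and 4.54 and 5.64 FPKM in the young libraries.

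**Figure D3:**
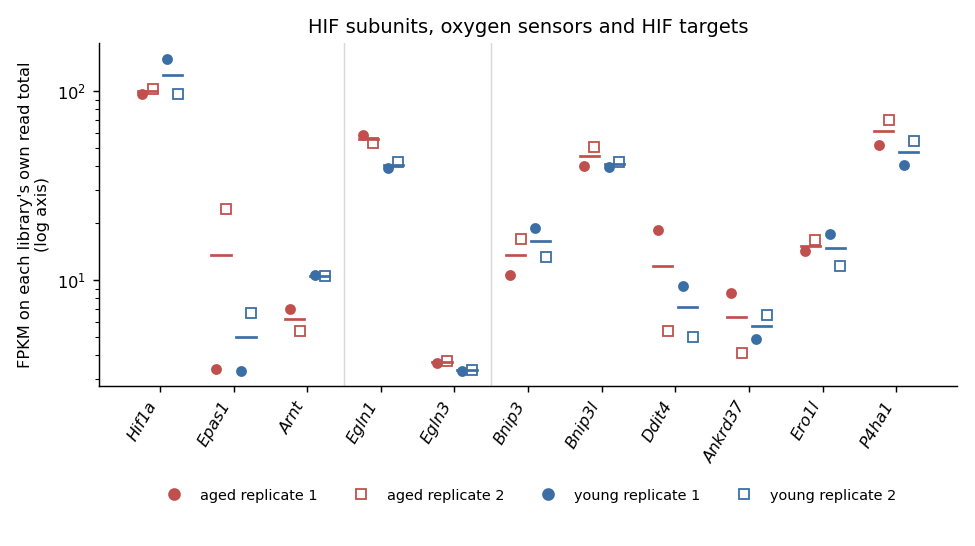
Levels of the 11 HIF subunits, oxygen sensors and HIF targets, in FPKM on a log axis, with aged libraries in red to the left and young libraries in blue to the right of each gene. Points are single libraries and short lines are group means; Arnt, Egln1 and Egln3 are the members whose ages do not overlap, and Epas1 is highest in aged replicate 2.

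Outside the pathway and the hydroxylases, 6 members are known HIF targets. In each of them the ages overlapped, as they did in 62% of all genes tested. The hydroxylases Egln1 and Egln3, which HIF is also known to induce, lay apart, as given above. P4ha1, a collagen prolyl hydroxylase, was 51.6 and 70.7 FPKM in the aged and 40.8 and 54.7 FPKM in the young libraries, with a difference of 0.35 (SE 0.26, limma adjusted p 0.781). Bnip3l, a mitophagy receptor, was 40.2 and 50.9 FPKM in the aged and 39.9 and 42.1 FPKM in the young libraries. Bnip3, its relative, was 10.6 and 16.5 FPKM in the aged and 18.98 and 13.3 FPKM in the young libraries. In both mitophagy genes the spread within an age was wider than the difference between the ages, of 0.14 for Bnip3l, which was -0.089 in the values as deposited, and -0.24 for Bnip3. Ddit4, an inhibitor of mTORC1 that stress also induces, was 18.4 and 5.41 FPKM in the aged and 9.35 and 5.02 FPKM in the young libraries. Its difference of 0.50 (SE 0.57) became -0.30 without aged replicate 1. Ero1l, an oxidase of the endoplasmic reticulum, stayed between 11.9 and 17.6 FPKM, and Ankrd37 between 4.10 and 8.60 FPKM, both with overlapping ages.

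HIF binds the core letters ACGTG and GCGTG. Both were searched on both strands in the 250 bases before each start in RefSeq's table for GRCm38.p6, where 32 members were matched and Epas1, Bnip3l and Ero1l were not. At least 1 start of 29 of the 32 members held a match (90.6%), against 41.5% of all 27025 genes in the table. By single starts it was 82.2% of 45 for the members and 38.6% of 32851 for all genes. The letters CACGTG hold a match on each strand and count as 2. A match is a description of the sequence and shows no binding. The members were picked from pathways that HIF is known to drive, which by itself favours a higher share. The 27025 genes include genes not tested here, and the starts were not matched for base composition. The contrast is therefore no test of the members. The stretches of the 4 members with the smallest p, and of Ldha as the partner of Ldhb, follow 5′ to 3′ with the matches in capitals.
Arnt, chr3:95434140-95434389, plus strand: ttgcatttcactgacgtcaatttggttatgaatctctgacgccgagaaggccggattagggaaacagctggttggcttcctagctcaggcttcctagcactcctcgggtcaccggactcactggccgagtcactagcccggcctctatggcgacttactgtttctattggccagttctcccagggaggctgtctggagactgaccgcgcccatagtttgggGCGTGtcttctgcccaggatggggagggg
Ldhb, chr6:142507958-142508207, minus strand: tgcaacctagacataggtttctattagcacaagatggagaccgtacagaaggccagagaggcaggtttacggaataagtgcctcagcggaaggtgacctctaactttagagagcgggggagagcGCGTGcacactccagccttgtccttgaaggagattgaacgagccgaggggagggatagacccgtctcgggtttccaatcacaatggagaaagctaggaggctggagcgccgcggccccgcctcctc
Egln1, chr8:124949255-124949504, minus strand: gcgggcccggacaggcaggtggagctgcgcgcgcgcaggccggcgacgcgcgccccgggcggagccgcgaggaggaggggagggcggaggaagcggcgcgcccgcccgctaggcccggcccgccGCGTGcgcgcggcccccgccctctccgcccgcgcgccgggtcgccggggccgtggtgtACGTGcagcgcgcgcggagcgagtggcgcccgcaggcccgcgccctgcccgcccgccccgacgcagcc
Slc16a3, chr11:120948817-120949066, plus strand: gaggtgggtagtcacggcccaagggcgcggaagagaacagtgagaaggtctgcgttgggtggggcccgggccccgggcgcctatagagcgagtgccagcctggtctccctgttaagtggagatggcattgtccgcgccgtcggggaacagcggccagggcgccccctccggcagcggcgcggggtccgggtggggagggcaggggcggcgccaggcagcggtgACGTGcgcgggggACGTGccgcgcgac
Ldha, chr7:46845554-46845803, plus strand: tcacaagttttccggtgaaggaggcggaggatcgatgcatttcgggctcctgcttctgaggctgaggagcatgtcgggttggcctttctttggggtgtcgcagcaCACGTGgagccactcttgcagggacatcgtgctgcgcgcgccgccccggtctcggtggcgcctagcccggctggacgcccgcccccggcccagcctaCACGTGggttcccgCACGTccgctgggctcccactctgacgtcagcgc
Ldha, shown at the more upstream of its 2 starts, held 5 matches, among them CACGTG in 2 places. Egln1 and Slc16a3 held 2 matches each, and Ldhb and Arnt 1 each, so members with differences of opposite sign, Arnt and Egln1, both hold a match.

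Beyond the members, 84 other genes of the pathway were read, of which 64 were tested and none passed. The 11 tested genes for pyruvate entry into the mitochondrion had a median difference of -0.27, beside -0.09 for all genes tested. Of their mean log2 values, 10 of 11 were lower in aged cells, against 59.5% of all genes tested. In 7 of the 11 the ages overlapped, against 62% of all genes. In the values as deposited the median was -0.305, beside -0.314 for all genes. The list holds Pdk2 (-0.37) and Pdk3 (-0.18), relatives of the kinase Pdk1, as well as pyruvate dehydrogenase itself. Pdha1, the catalytic subunit of pyruvate dehydrogenase, was 26.3 and 24.2 FPKM in the aged libraries, against 34.0 and 32.6 FPKM in the young libraries. Pdha1 shares 16.5% of its 50-base stretches with Map3k15, itself at 11.7 and 13.4 FPKM in the aged and 14.5 and 18.1 FPKM in the young libraries, and the part of that overlap in the Pdha1 values was not tested. The 7 genes of the pentose phosphate branch had a median difference of 0.16, which was -0.40 in the values as deposited. By mean log2 value 4 were higher and 3 lower in aged cells, and in 4 the ages overlapped. In 2 genes, G6pdx (-0.20) and Rpia (-0.37), both aged libraries lay below both young ones, and in 1, Pgd, above. Pgd, 6-phosphogluconate dehydrogenase, was 196 and 194 FPKM in the aged libraries and 161 and 169 FPKM in the young libraries. The difference of Pgd, 0.24, was also -0.40 in the values as deposited. The 24 other HIF targets tested had a median difference of 0.09, which was -0.066 in the values as deposited, with 17 higher and 7 lower. Pim1, a survival kinase that cytokines also induce, had the smallest p of them, at 217 and 128 FPKM in the aged libraries, against 96.1 and 69.8 FPKM in the young libraries (difference 1.01, SE 0.31, unadjusted p 0.0171, limma adjusted p 0.740). Pim1 shares 9.01% of its 50-base stretches with Gm26885. Mxi1, an antagonist of MYC, was 44.4 and 47.6 FPKM in the aged libraries, against 41.9 and 26.9 FPKM in the young libraries. Lower in aged cells were Kdm3a and Cxcr4. Kdm3a, a histone demethylase, was 5.85 and 5.51 FPKM in the aged libraries and 8.98 and 9.52 FPKM in the young libraries. Cxcr4, a chemokine receptor, was 62.1 and 49.1 FPKM in the aged libraries, against 76.8 and 73.9 FPKM in the young libraries.

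Over the 34 members tested, 24 were higher and 10 lower in aged cells by their mean log2 value, where 40.5% of all genes tested were higher. The scaling moves that background. With median ratio scaling 26 of 34 members and 50.8% of all genes were higher, and in the values as deposited 11 of 35 members and 23.8% of all genes were. Both aged libraries lay above both young ones in 10 members, against 11.8% of all genes, and below in 4 members, against 26.2% of all genes. These shares are descriptions of 4 libraries. The 23 enzymes, carriers and flux regulators had a median difference of 0.14 (quartiles -0.10 and 0.22), and the 11 hypoxia members 0.11 (-0.09 and 0.40), beside -0.09 (-0.36 and 0.18) for all genes tested. In the values as deposited these medians were -0.21 for the first list, -0.15 for the second and -0.31 for all genes. In 18 of the 34 members the gap between the young libraries was wider than the difference between the ages, against 53.6% of all genes, and in 11 the difference was larger than both gaps, against 25.7% of all genes. limma called 0 members and 0 of 11656 genes at an adjusted p of 0.05. At an unadjusted p below 0.05 there were 2 members, Ldhb higher (1.76% of all genes were) and Arnt lower (4.87% of all genes were).

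**Figure D4:**
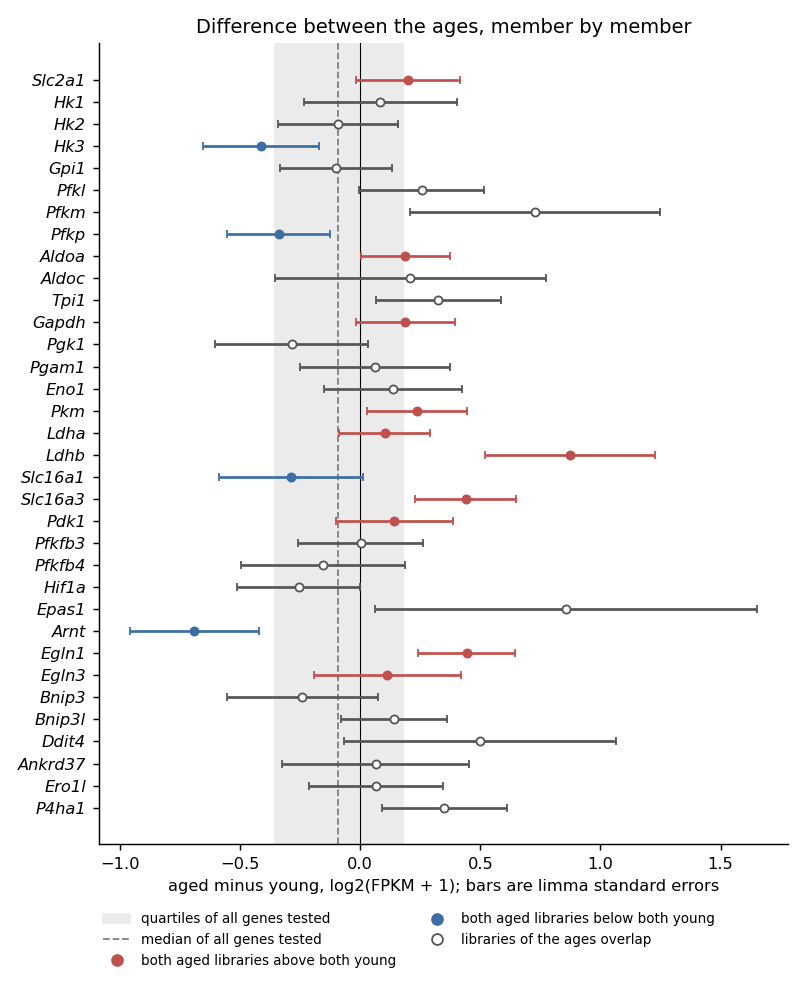
Difference of aged minus young on the log2(FPKM + 1) scale for the 34 members tested, with limma standard errors, beside the median and quartiles of all 11656 genes tested. Red points are members with both aged libraries above both young ones, blue points those with both below, and open points overlap; the quartiles of all genes run from -0.36 to 0.18, and Ldhb, Epas1 and Pfkm lie farthest to the right and Arnt farthest to the left. In the values as deposited 13 of these members take the opposite sign. Among them, Aldoa, Gapdh, Pkm, Ldha, Pdk1 and Egln3 are those whose ages do not overlap.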

How the data were processed

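The data are the deposited FPKM table of 4 libraries, with Entrez IDs and symbols. Per the labels' protocols, cells were sorted into lysis buffer, RNA was extracted in a single round, and oligo-dT primed cDNA was amplified by multiple displacement, which can copy transcripts unevenly. The submitters' processing notes name bcl2fastq, BWA 0.7.12, DESeq2 and mm10 without roles. For the counting program and annotation, the sources used here give nothing.

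The authors' FPKM values had been divided, gene by gene, by 12 read totals in turn, 8 of which belong to none of the 4 libraries. That division was undone and each value was scaled to its library's own total. This was checked: with the totals undone, 99.99% of 20160 genes above 0 in at least 3 libraries gave whole reads at a whole length of up to 30000 bases, within 0.005 reads, and without it 0.362% did. Reads given are the smallest whole numbers possible. The main fit used the restored values, and the deposited scale was kept as an alternative. Per library, 19897 to 21361 genes were above 0, and 1 read in 2 kb was worth 0.0435 to 0.0580 FPKM.

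limma 3.58.1 (R 4.3.3) was fitted on log2(FPKM + 1) with an intensity trend, two-sided, over genes with a mean of at least 1 FPKM, Benjamini-Hochberg adjusted over all of them. Its code was run on simulated data with larger changes than any member showed, which gives no measure of its power for the differences here. Alternatives were a pseudocount of 0.1, no filter, a minimum of 5 FPKM, 3 scalings, no trend, each library left out and a replicate block. Members' groups come from the sample titles. Nothing says which mice went into a pool, so p-values measure only the spread between these samples, which may be technical. Shared sequence was counted as 50-base stretches of protein-coding transcripts of GENCODE M21 found on either strand in transcripts of other genes.

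The members, the other pathway genes and the marker lists were chosen with earlier results of these data known. By rule, single values are given for members whose ages do not overlap and for the most abundant isoenzymes, and of the other pathway genes for up to 4 in each direction with ages apart, a mean of at least 5 FPKM and the smallest p. Pdha1, Pdk2, Pdk3, G6pdx, Rpia, Pitrm1, Map3k15, Slc16a7, Egln2, Hif1an and the remaining members were added after their values were seen.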

Additional observations from a re-analysis of the deposited data

How the results depend on the processing

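No member was called under any of the 12 alternatives, and of all genes a single one, Lars2, was called with the replicate number as a block (1 gene, adjusted p 0.0459). The labels do not say that a number pairs libraries, and same-numbered libraries did not deviate together (correlation -0.0004 over 11656 genes). The block changed no other call. Unadjusted p below 0.05 was found for 773 genes, and for 381 to 1437 when 1 library was left out, where the lone library of an age is assumed to vary like the other age.

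In the values as deposited the median of all genes was -0.31. The median of the enzymes and carriers was -0.21 there (0.14 on the restored scale), and that of the hypoxia members -0.15 (0.11). The sign was opposite for Hk1 (-0.054), Aldoa (-0.45), Aldoc (-0.12), Gapdh (-0.21), Pgam1 (-0.28), Eno1 (-0.11), Pkm (-0.17), Ldha (-0.54), Pdk1 (-0.25), Egln3 (-0.20), Bnip3l (-0.089), Ankrd37 (-0.15) and Ero1l (-0.54). These values carry the gene-dependent divisors by construction. With median ratio scaling Hk2 (0.017) and Gpi1 (0.010) changed sign. The other settings that keep all 4 libraries changed no sign among the members that could be fitted, and a minimum of 5 FPKM left 31 members.

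Leaving out 1 library gave medians of 0.09 to 0.14 for the enzymes and carriers and -0.03 to 0.13 for the hypoxia members, and 0 calls each time. For members whose ages do not overlap, whose sign no left-out library can change, the ranges were, among others, Arnt at -0.85 to -0.53, Ldhb at 0.49 to 1.26 and Pfkp at -0.37 to -0.31. The sign of 16 members depended on a single library, and the cause was not tested. The ranges were -0.19 to 0.36 for Hk1, -0.30 to 0.11 for Hk2, -0.30 to 0.094 for Gpi1, -0.55 to 0.97 for Aldoc, -0.71 to 0.13 for Pgk1, -0.29 to 0.41 for Pgam1, -0.040 to 0.31 for Eno1, -0.23 to 0.24 for Pfkfb3, -0.49 to 0.18 for Pfkfb4, -0.56 to 0.049 for Hif1a, -0.39 to 2.10 for Epas1, -0.54 to 0.054 for Bnip3, -0.027 to 0.31 for Bnip3l, -0.30 to 1.30 for Ddit4, -0.39 to 0.52 for Ankrd37 and -0.20 to 0.33 for Ero1l.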
